A study of Mus musculus with 14 samples.

Results

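Fibroblasts of mouse embryos (MEFs), cells of connective tissue grown in culture, were sequenced after 12 h and after 6 h without glucose, and the 12 h cells were compared with the 6 h cells over all genes. The comparison was between 4 of the 14 libraries of the series, 2 at 12 h and 2 at 6 h, chosen by their labels. No control library was among those compared. All 14 libraries entered the choice of genes tested, the scaling and the estimate of the spread. Each of the 40800 genes was represented by its transcript row with the most reads over all 14 libraries, and 17696 genes had enough reads to be tested. At both times the cells were in glucose-free DMEM with 10% dialyzed serum, after a day in high glucose medium, and they were trypsinised and frozen in dialyzed serum with DMSO before sequencing. The other groups used beside them were fibroblasts after 12 h and 6 h without amino acids, handled in the same way, fibroblasts after 3 h without glucose, and untreated fibroblasts at 0 h, which kept ordinary serum and were frozen in it. The labels used here give no genotype or strain, nor the age of the embryos, and do not state whether a group's 2 libraries are separate cultures. The p-values then measure the spread between libraries of the same group alone, estimated over all 7 groups. That spread may be technical.

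Cells without glucose lose both a fuel and the sugar units from which the N-glycans of secreted proteins are built. Underglycosylated proteins accumulate in the endoplasmic reticulum (ER), where the sensors IRE1, ATF6 and PERK start the unfolded protein response, and PERK, through the translation factor eIF2α, also starts the integrated stress response with its transcription factors ATF4 and CHOP. Falling energy charge activates the kinase AMPK and lowers the activity of mTORC1, which frees the factors TFEB and TFE3 to act on genes of lysosomes and autophagy, by which cells digest their own contents.

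Over the transcript rows kept, the 12 h libraries held 54990630 and 38448209 reads, and the 6 h libraries held 35829315 and 42380980 reads. Across genes, log2 levels of the 2 libraries of a time correlated with r of 0.991 at 12 h and 0.990 at 6 h. On the second principal component of all 14 libraries (26.7% of the variance), the 12 h libraries scored -71.1 and -74.2, and the 6 h libraries -21.2 and -21.5. Levels are given as CPM, read counts scaled to a common depth with TMM factors, for each library. The marker sums that follow are the exception, scaled by library totals without TMM factors. Summed levels of 12 fibroblast markers were 5332 and 5375 CPM at 12 h, against 7998 and 7785 CPM at 6 h, with 9 of the 11 tested markers lower and Thy1 at 3 reads or fewer in each library. In a culture, fewer cells of a type and less RNA per cell cannot be told apart. Endothelial markers summed to 35.2 and 31.1 CPM at 12 h, against 47.1 and 46.6 CPM at 6 h, with Tie1, Emcn and Erg at 3 reads or fewer in each library. Macrophage markers summed to 20.3 and 21.9 CPM at 12 h, against 26.5 and 26.03 CPM at 6 h, with Ptprc, Adgre1, Fcgr1, Mrc1 and Tyrobp at 3 reads or fewer in each library. Neural markers summed to 140 and 136 CPM at 12 h, against 336 and 325 CPM at 6 h, mostly from Nes, an intermediate filament gene, with Sox10, Sox2, Nefl, Gfap, Rbfox3 and Dcx at 3 reads or fewer in each library. The other marker lists (epithelial, skeletal muscle, adipocyte and erythroid) summed to 12.3 CPM or less in each of the 4 libraries. The part of these markers in the results was not tested.

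Between 6 h and 12 h without glucose, genes of protein folding in the ER, of the integrated stress response, of lysosomes and of autophagy were higher, and growth factor response genes, cytokines, matrix genes, actin genes and genes of mitosis were lower. A gene is said to rise or fall where edgeR's quasi-likelihood test gave a Benjamini-Hochberg adjusted p under 0.05 over all genes tested. By this rule 8411 genes (47.5%) changed, of which 4537 rose (25.6% of the genes tested) and 3874 fell (21.9%). At least 2-fold changes were fewer, with 703 genes higher (3.97%) and 1021 lower (5.77%). The median log2 fold change of all genes tested was 0.03. In 73.9% of the genes tested, both libraries of one time lay above both libraries of the other, so that groups that do not overlap were the usual case. Of the genes named below, all but Hif1a and Malat1 had groups that did not overlap. So did 8404 of the 8411 genes that changed, and the largest changes were named only among such genes. For a gene that changed, the absence of overlap is therefore no further support. Genes were named by a rule, and members that went against their list, and Tfeb, Tfe3, Hif1a and Malat1, were named after their values were seen. A value after ± beside a log2 fold change or a difference is its standard error (SE). The SE was derived from edgeR's test, as the absolute change divided by the square root of the F statistic. Lists of related genes are read against these shares, with the median of their log2 fold changes.

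**Figure D1:**
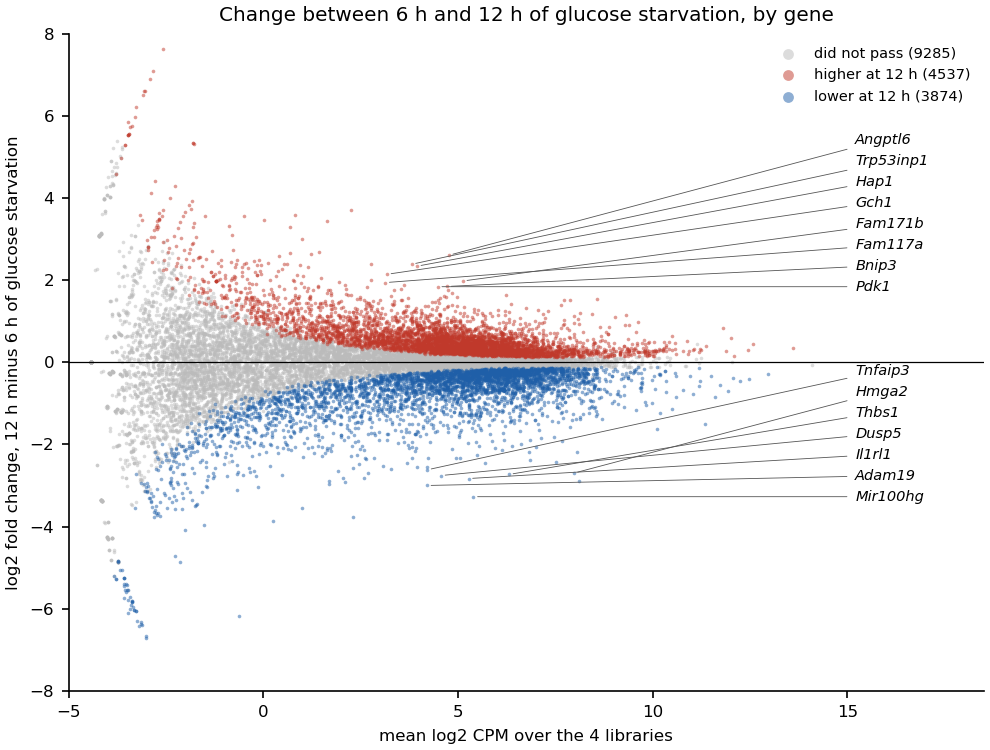
Each point is one of the 17696 genes tested, with its mean level over the 4 libraries (log2 CPM) on the horizontal axis and its log2 fold change, 12 h minus 6 h of glucose starvation, on the vertical axis. Red points rose (4537), blue points fell (3874) and grey points did not pass (9285). Named genes among the highest and lowest, from Angptl6 at 2.61 to Mir100hg at -3.27, are labelled.

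The named genes with the largest changes were taken among those that passed, with log2 CPM averaging 3 or more and groups that did not overlap. Genes with few reads can exceed them. Angptl6, which encodes a secreted angiopoietin-like protein, had 69.1 and 64.7 CPM at 12 h, against 10.3 and 11.6 CPM at 6 h (log2 fold change 2.61 ± 0.10, edgeR adjusted p = 3.80e-18). Trp53inp1, a p53 target whose product acts in cell death and autophagy, had 32.04 and 31.6 CPM at 12 h, against 6.21 and 5.97 CPM at 6 h (log2 fold change 2.39 ± 0.12, edgeR adjusted p = 3.28e-16). Gch1, encoding the first enzyme of tetrahydrobiopterin synthesis, had 18.54 and 19.3 CPM at 12 h, against 3.97 and 4.56 CPM at 6 h (log2 fold change 2.14 ± 0.15, edgeR adjusted p = 8.24e-13). Pdk1, whose kinase shuts off pyruvate dehydrogenase, had 43.5 and 40.7 CPM at 12 h, against 11.8 and 11.7 CPM at 6 h (log2 fold change 1.84 ± 0.10, edgeR adjusted p = 4.89e-15). For each of these genes the higher 6 h library remained far below the lower 12 h library. Their naming already required that the groups do not overlap. The other genes of this group were Hap1, which encodes a huntingtin-associated protein, Fam171b, Fam117a and Bnip3, which encodes a mitophagy receptor, with log2 fold changes of 2.34, 1.98, 1.94 and 1.85.

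The largest falls were led by Mir100hg, the host transcript of a microRNA cluster, with 14.3 and 12.7 CPM at 12 h, against 125 and 137 CPM at 6 h (log2 fold change -3.27 ± 0.080, edgeR adjusted p = 1.09e-22). Thbs1, encoding the matrix glycoprotein thrombospondin 1, had 33.5 and 27.9 CPM at 12 h, against 204 and 206 CPM at 6 h (log2 fold change -2.73 ± 0.075, edgeR adjusted p = 2.44e-21). Hmga2, encoding a chromatin protein of embryonic cells, had 98.7 and 97.6 CPM at 12 h, against 622 and 654 CPM at 6 h (log2 fold change -2.70 ± 0.060, edgeR adjusted p = 1.56e-23). Both 12 h libraries were far below both 6 h libraries in all of them, and their naming also required groups without overlap. Adam19, a membrane protease gene, had 7.11 and 5.79 CPM at 12 h, against 52.2 and 51.97 CPM at 6 h (edgeR adjusted p = 3.80e-18). Il1rl1, which encodes the receptor of interleukin 33, Dusp5, a phosphatase gene of the MAP kinase ERK, and Tnfaip3, an inhibitor of NF-kappaB signalling, had log2 fold changes of -2.83, -2.76 and -2.62.

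Of the sensors and factors that carry the unfolded protein response, 5 of 9 rose and 3 fell (median 0.31). Atf6, the sensor that is cut in the Golgi to become a transcription factor, had 146 and 139 CPM at 12 h, against 103 and 100.3 CPM at 6 h (log2 fold change 0.49 ± 0.054, edgeR adjusted p = 1.45e-08). Ern1, which encodes IRE1, had 75.2 and 70.2 CPM at 12 h, against 51.2 and 52.1 CPM at 6 h (log2 fold change 0.50 ± 0.074, edgeR adjusted p = 2.53e-06). Xbp1, whose mRNA IRE1 splices, was lower with 83.1 and 85.3 CPM at 12 h, against 109.8 and 108 CPM at 6 h (log2 fold change -0.37 ± 0.067, edgeR adjusted p = 3.10e-05). Gene counts do not show how much of it was spliced. The other falls were those of Creb3l1, a membrane-bound relative of ATF6, at 21.2 and 22.2 CPM at 12 h, against 53.9 and 52.99 CPM at 6 h (log2 fold change -1.30 ± 0.072, edgeR adjusted p = 6.68e-15), and of Mbtps2, a protease that cuts such factors, with a log2 fold change of -0.56.

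The ER chaperones and folding enzymes moved together, as 17 of 18 rose and 0 fell (median 0.49). Calr, encoding the lectin chaperone calreticulin, which binds glycoproteins, had 4771 and 4863 CPM at 12 h, against 2626 and 2752 CPM at 6 h (log2 fold change 0.84 ± 0.050, edgeR adjusted p = 3.24e-14). Pdia4, a disulfide isomerase gene, had 991 and 982 CPM at 12 h, against 579 and 602 CPM at 6 h (log2 fold change 0.74 ± 0.050, edgeR adjusted p = 6.20e-13). Creld2, which encodes a stress-induced ER protein, had 290.2 and 308 CPM at 12 h, against 163 and 169 CPM at 6 h (log2 fold change 0.85 ± 0.061, edgeR adjusted p = 2.11e-12). Dnajb9, a cochaperone of BiP and a target of XBP1, had 50.4 and 49.6 CPM at 12 h, against 22.5 and 20.7 CPM at 6 h (log2 fold change 1.21 ± 0.091, edgeR adjusted p = 4.61e-12). In these genes both 12 h libraries lay above both 6 h libraries by far more than the spread between the libraries of a time. Hspa5, which encodes BiP itself, had 4614 and 4649 CPM at 12 h, against 4039.9 and 4239 CPM at 6 h, the smallest rise of the list (log2 fold change 0.16 ± 0.052, edgeR adjusted p = 0.0106). That rise did not pass without either 12 h library or without the first 6 h library (log2 fold changes of 0.17, 0.16 and 0.13).

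The promoters of Calr and Creld2 are shown because they hold the ER stress element (ERSE), the letters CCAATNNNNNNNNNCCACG, to which the factors NF-Y and ATF6 are known to bind. In RefSeq promoters (GRCm38.p6, 250 bases before to 50 after the start of the gene), searched on both strands, 7 of the 16 members with a sequence held an ERSE, against 0.130% of 27025 promoters. The 7 were Calr, Canx, Creld2, Dnajc3, Hsp90b1, Hspa5 and Pdia6. All 7 rose, as did 15 of the 16 members. Each motif in this report was looked for in the list it is known for, and its part in these changes was not tested. Capitals mark the match, which lies on the opposite strand in both, and starts 162 and 126 bases before the start of Calr (chr8:84846882-84847181, minus strand) and Creld2 (chr15:88819396-88819695, plus strand).
Calr: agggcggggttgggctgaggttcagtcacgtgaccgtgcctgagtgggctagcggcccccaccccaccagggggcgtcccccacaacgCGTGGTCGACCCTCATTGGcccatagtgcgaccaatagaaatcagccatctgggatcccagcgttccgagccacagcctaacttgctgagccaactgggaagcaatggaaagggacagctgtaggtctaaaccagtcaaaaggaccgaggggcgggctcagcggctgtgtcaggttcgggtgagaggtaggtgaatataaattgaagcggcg
Creld2: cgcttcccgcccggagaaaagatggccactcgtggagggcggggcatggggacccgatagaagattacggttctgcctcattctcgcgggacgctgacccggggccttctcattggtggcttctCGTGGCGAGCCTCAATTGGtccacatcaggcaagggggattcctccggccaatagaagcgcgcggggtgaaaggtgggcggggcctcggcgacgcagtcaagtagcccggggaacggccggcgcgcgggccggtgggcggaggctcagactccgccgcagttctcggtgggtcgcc

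Genes of ER-associated degradation, which sends misfolded proteins to the proteasome, were higher as well, as 10 of 15 rose and 1 fell (median 0.36). The single fall, that of Ube2g2, was lost without any one of the 4 libraries. Syvn1, which encodes the ubiquitin ligase HRD1, had 305 and 303 CPM at 12 h, against 147 and 149 CPM at 6 h (log2 fold change 1.04 ± 0.057, edgeR adjusted p = 5.37e-15). Sel1l, its adaptor, had 384 and 379 CPM at 12 h, against 199.7 and 199.7 CPM at 6 h (log2 fold change 0.93 ± 0.052, edgeR adjusted p = 7.98e-15). Herpud1, a partner of that complex, had 762 and 773 CPM at 12 h, against 353 and 362 CPM at 6 h (log2 fold change 1.10 ± 0.052, edgeR adjusted p = 1.91e-16), and Edem1, which selects glycoproteins for disposal, had a log2 fold change of 0.67. In the list of COPII coat and translocon genes, which move proteins into and out of the ER, 10 of 18 rose and 1 fell (median 0.14), with 6 rises instead of 10 without the first 12 h or the first 6 h library. Its changes were small, between -0.39 for Sec61b, a translocon subunit, and 0.38 for Srprb, a subunit of the receptor of the signal recognition particle.

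Among hexosamine pathway and glycosylation genes, which make and attach the sugars of glycoproteins, 14 of 22 rose and 1 fell (median 0.23). Gnpda1, an enzyme that returns glucosamine 6-phosphate to glycolysis, had 81.9 and 83.6 CPM at 12 h, against 47.6 and 47.5 CPM at 6 h (log2 fold change 0.80 ± 0.071, edgeR adjusted p = 1.64e-10). Oga, which removes O-GlcNAc from proteins, had 105 and 102 CPM at 12 h, against 64.3 and 67.1 CPM at 6 h (log2 fold change 0.66 ± 0.056, edgeR adjusted p = 8.27e-11). Alg2, a mannosyltransferase of the lipid-linked N-glycan precursor, had 49.8 and 48.5 CPM at 12 h, against 27.1 and 31.1 CPM at 6 h (log2 fold change 0.76 ± 0.080, edgeR adjusted p = 6.20e-09). Gfpt1, the rate-limiting enzyme of the pathway, had 159 and 154 CPM at 12 h, against 125 and 128 CPM at 6 h (log2 fold change 0.31 ± 0.060, edgeR adjusted p = 9.27e-05). Dpagt1, which starts the lipid-linked precursor, was the member that fell, with 39.1 and 39.5 CPM at 12 h, against 55.3 and 53.8 CPM at 6 h (log2 fold change -0.47 ± 0.067, edgeR adjusted p = 1.10e-06).

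Targets of ATF4 and CHOP were higher at 12 h in most cases, as 19 of 30 rose and 1 fell (median 0.36). Ddit3, which encodes CHOP, had 317 and 334 CPM at 12 h, against 124 and 125 CPM at 6 h (log2 fold change 1.39 ± 0.071, edgeR adjusted p = 2.46e-15). Atf3, a factor induced by ATF4, had 131 and 133 CPM at 12 h, against 40.4 and 43.8 CPM at 6 h (log2 fold change 1.65 ± 0.063, edgeR adjusted p = 1.59e-18). Neither gene had overlapping libraries. Ppp1r15a, which encodes GADD34, the phosphatase subunit that reverses the phosphorylation of eIF2α, had 399 and 396 CPM at 12 h, against 136 and 140.2 CPM at 6 h (log2 fold change 1.53 ± 0.057, edgeR adjusted p = 1.20e-18). Trib3, a pseudokinase gene, had 259 and 275 CPM at 12 h, against 148 and 149 CPM at 6 h (log2 fold change 0.84 ± 0.061, edgeR adjusted p = 2.14e-12), and Asns, which encodes asparagine synthetase, had 539 and 545 CPM at 12 h, against 385 and 399 CPM at 6 h (log2 fold change 0.47 ± 0.051, edgeR adjusted p = 1.11e-08). Fgf21, encoding a secreted stress hormone, was at a low level, with 1.71 and 1.81 CPM at 12 h, against 0.460 and 0.347 CPM at 6 h (log2 fold change 2.12 ± 0.35, edgeR adjusted p = 9.33e-06).

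Atf4 itself did not pass the test, with 909 and 947 CPM at 12 h, against 994 and 1027 CPM at 6 h (log2 fold change -0.12 ± 0.052, edgeR adjusted p = 0.0523), and it passed as lower under 8 of the alternative settings, at log2 fold changes of -0.12 to -0.16. Chac1, whose product degrades glutathione, did not pass either, with 132 and 139.8 CPM at 12 h, against 131 and 129 CPM at 6 h (log2 fold change 0.06 ± 0.056, edgeR adjusted p = 0.382). The member that fell was Vldlr, a lipoprotein receptor, at -0.24. With the 4 libraries fitted together with no other group, 4 members fell instead of 1. Gdf15, a stress cytokine, was below 1 CPM in each of the 4 libraries, and its rise (log2 fold change 1.44 ± 0.57, edgeR adjusted p = 0.0371) did not pass without the first 12 h or the second 6 h library, nor under DESeq2, with no filter or with the 4 libraries fitted alone.

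The promoter of Atf3 is shown for the C/EBP-ATF response element (CARE, TGATGNAA), to which ATF4 is known to bind. Of the 26 members with a RefSeq promoter, 8 held it on either strand, against 4.06% of all promoters. They were Asns, Atf3, Chac1, Fgf21, Herpud1, Nupr1, Slc7a11 and Trib3. Of those 8 genes 7 rose, and of the 26 members 17 rose. Its match, in capitals, lies on the opposite strand 110 bases before the start (chr1:191183284-191183583, minus strand, GRCm38.p6).
Atf3: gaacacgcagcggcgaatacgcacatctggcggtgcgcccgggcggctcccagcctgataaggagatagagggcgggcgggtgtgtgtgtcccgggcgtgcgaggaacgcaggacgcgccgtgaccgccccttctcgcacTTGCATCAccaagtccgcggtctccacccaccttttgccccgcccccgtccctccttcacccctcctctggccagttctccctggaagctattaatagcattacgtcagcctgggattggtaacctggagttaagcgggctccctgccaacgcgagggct

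Genes that supply amino acids were mostly higher too. Of the carriers that move amino acids across membranes, 11 of 20 rose and 4 fell (median 0.21). By at least 2-fold, 3 of them rose and 1 fell. Their log2 fold changes ran from -2.70 to 1.21, so that the largest change was downward. Slc6a9, the glycine carrier, had 369 and 368 CPM at 12 h, against 167 and 173 CPM at 6 h (log2 fold change 1.12 ± 0.055, edgeR adjusted p = 4.80e-16). Slc3a2, the heavy chain shared by several carriers, had 1095 and 1119 CPM at 12 h, against 555 and 560.0 CPM at 6 h (log2 fold change 0.99 ± 0.052, edgeR adjusted p = 2.03e-15). Slc7a3, a cationic amino acid carrier, had 23.8 and 22.4 CPM at 12 h, against 9.72 and 10.2 CPM at 6 h (log2 fold change 1.21 ± 0.11, edgeR adjusted p = 5.21e-10). Slc1a5, the glutamine carrier ASCT2, was lower with 97.99 and 104 CPM at 12 h, against 147 and 151 CPM at 6 h (log2 fold change -0.57 ± 0.054, edgeR adjusted p = 8.19e-10). Of the aminoacyl-tRNA synthetases, which load amino acids onto tRNAs, 11 of 20 rose and 3 fell (median 0.18). Their changes were small, from -0.38 for Farsb (phenylalanine) to 0.34 for Eprs (glutamate and proline).

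In serine and one-carbon synthesis, which makes serine from glycolytic carbon and passes its carbon to folates, 7 of 11 rose and 0 fell (median 0.40). Aldh1l2, a mitochondrial folate enzyme, had 980.3 and 917 CPM at 12 h, against 423 and 426 CPM at 6 h (log2 fold change 1.16 ± 0.057, edgeR adjusted p = 5.04e-16). Psph, the last enzyme of serine synthesis, had 235 and 242 CPM at 12 h, against 142 and 149 CPM at 6 h (log2 fold change 0.71 ± 0.054, edgeR adjusted p = 5.61e-12). Shmt2, which takes a carbon unit from serine in mitochondria, had 1031 and 1073 CPM at 12 h, against 720.4 and 714 CPM at 6 h (log2 fold change 0.55 ± 0.053, edgeR adjusted p = 7.68e-10), and Mthfd1l, a later step of the same route, had a log2 fold change of 0.56.

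**Figure D2:**
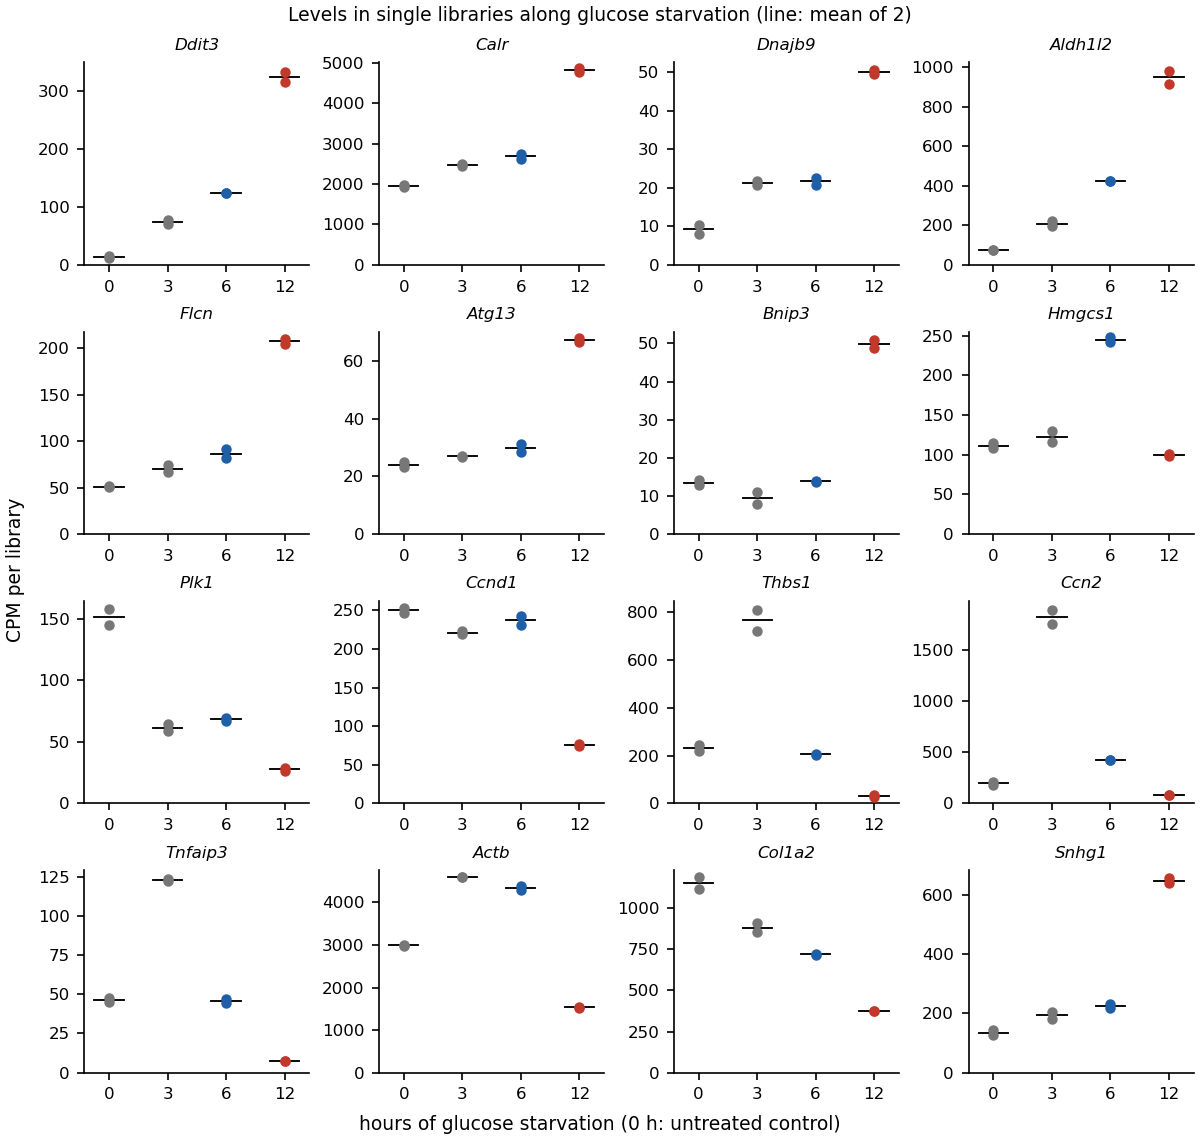
CPM of 16 named genes in single libraries of untreated control cells (0 h) and after 3, 6 and 12 h of glucose starvation (2 libraries each, the line is their mean). The 12 h libraries (red) lie above the 6 h libraries (blue) in Ddit3, Calr, Dnajb9, Aldh1l2, Flcn, Atg13, Bnip3 and Snhg1, and below them in Hmgcs1, Plk1, Ccnd1, Thbs1, Ccn2, Tnfaip3, Actb and Col1a2.

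Genes of the autophagy machinery were mostly higher, and 18 of 34 rose and 2 fell (median 0.30). Atg13, a subunit of the ULK1 kinase complex that starts autophagy, had 66.7 and 68.01 CPM at 12 h, against 31.4 and 28.5 CPM at 6 h (log2 fold change 1.17 ± 0.072, edgeR adjusted p = 6.29e-14). Ulk1, its kinase, had 50.2 and 49.8 CPM at 12 h, against 29.2 and 28.9 CPM at 6 h (log2 fold change 0.79 ± 0.077, edgeR adjusted p = 1.35e-09). Atg14, which brings the lipid kinase VPS34 to autophagosomes, had 39.8 and 38.8 CPM at 12 h, against 15.3 and 16.4 CPM at 6 h (log2 fold change 1.31 ± 0.088, edgeR adjusted p = 5.02e-13). Atg12, a ubiquitin-like protein needed to attach LC3 to membranes, had 58.3 and 61.5 CPM at 12 h, against 26.95 and 29.02 CPM at 6 h (log2 fold change 1.09 ± 0.078, edgeR adjusted p = 1.61e-12). The 2 falls were those of Rb1cc1, a partner of ULK1, and Vmp1, a lipid scramblase, at -0.19 and -0.39, and 1 of them remained without the second 12 h library or without either 6 h library.

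Of the receptors that bring cargo to autophagosomes, 9 of 18 rose and 1 fell (median 0.19), with a median of 0.12 without the first 12 h library. Bnip3, a receptor on mitochondria, had 48.8 and 50.99 CPM at 12 h, against 14.1 and 13.7 CPM at 6 h (log2 fold change 1.85 ± 0.11, edgeR adjusted p = 2.23e-14). Sqstm1, which encodes the ubiquitin-binding receptor p62, was one of the more abundant members, with 843 and 852 CPM at 12 h, against 454 and 451 CPM at 6 h (log2 fold change 0.91 ± 0.052, edgeR adjusted p = 1.66e-14). Nbr1, a relative of p62, had 137 and 129 CPM at 12 h, against 70.3 and 70.6 CPM at 6 h (log2 fold change 0.92 ± 0.056, edgeR adjusted p = 5.30e-14), and Ncoa4, the receptor for ferritin, had a log2 fold change of 0.67.

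Lysosomal genes and the TFEB pathway were mostly higher, and 27 of 36 rose and 4 fell (median 0.30). Flcn, which encodes folliculin, a regulator of the Rag GTPases at the lysosome, had 204 and 209.9 CPM at 12 h, against 91.04 and 81.9 CPM at 6 h (log2 fold change 1.26 ± 0.061, edgeR adjusted p = 3.58e-16). Mcoln1, the lysosomal calcium channel, had 109 and 114 CPM at 12 h, against 56.4 and 56.6 CPM at 6 h (log2 fold change 0.98 ± 0.062, edgeR adjusted p = 1.04e-13). Atp6v1b2, a subunit of the proton pump, had 169 and 171 CPM at 12 h, against 121 and 125 CPM at 6 h (log2 fold change 0.46 ± 0.052, edgeR adjusted p = 1.48e-08). The 12 h libraries were above the 6 h libraries in each of them. Tfeb itself had a log2 fold change of -0.32 and did not pass (edgeR adjusted p = 0.0779), while Tfe3, its relative, rose with 0.27. Of the 4 falls, 2 remained without the second 12 h or the second 6 h library.

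In the mTORC1 and AMPK list, 10 of 25 rose and 5 fell (median 0.18). Sesn3, a sestrin that restrains mTORC1, had 25.9 and 24.1 CPM at 12 h, against 11.3 and 10.4 CPM at 6 h (log2 fold change 1.21 ± 0.098, edgeR adjusted p = 2.50e-11). Mlst8, a subunit of both mTOR complexes, had 67.5 and 69.4 CPM at 12 h, against 42.1 and 44.7 CPM at 6 h (log2 fold change 0.66 ± 0.069, edgeR adjusted p = 4.55e-09). Prkab2, a regulatory subunit of AMPK, was lower with 8.82 and 10.1 CPM at 12 h, against 24.5 and 22.4 CPM at 6 h (log2 fold change -1.32 ± 0.11, edgeR adjusted p = 2.07e-11). Eif4ebp2, a translation repressor that mTORC1 inactivates, was lower with 93.5 and 93.8 CPM at 12 h, against 139 and 141 CPM at 6 h (log2 fold change -0.58 ± 0.053, edgeR adjusted p = 2.42e-10).

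Glycolytic genes moved in both directions, as 9 of 21 rose and 5 fell (median 0.11), and 3 instead of 5 fell without the first 12 h or the second 6 h library. Pfkl, the liver form of phosphofructokinase, had 291 and 295 CPM at 12 h, against 152 and 153 CPM at 6 h (log2 fold change 0.94 ± 0.069, edgeR adjusted p = 4.90e-12). Aldoa, an aldolase gene, had 681 and 723 CPM at 12 h, against 528 and 541 CPM at 6 h (log2 fold change 0.39 ± 0.056, edgeR adjusted p = 1.16e-06). Hk2, the hexokinase that starts glycolysis at mitochondria, was lower with 59.3 and 58.1 CPM at 12 h, against 114 and 116 CPM at 6 h (log2 fold change -0.97 ± 0.064, edgeR adjusted p = 2.65e-13). The genes for these enzymes thus differed in direction. Slc2a1, the glucose carrier GLUT1, did not pass, with 117 and 119 CPM at 12 h, against 106 and 113 CPM at 6 h (log2 fold change 0.11 ± 0.066, edgeR adjusted p = 0.175). In the list of gluconeogenesis, pentose phosphate and pyruvate genes, 7 of 17 rose and 3 fell (median 0.10). Of its falls, those of Taldo1, Pgd and Pdk4, 1 or none remained without the first 12 h, the second 12 h or the second 6 h library. Pck2, the mitochondrial PEP carboxykinase and a target of ATF4, had 493 and 516 CPM at 12 h, against 325 and 326 CPM at 6 h (log2 fold change 0.63 ± 0.059, edgeR adjusted p = 5.00e-10), and Pdk2, another kinase of pyruvate dehydrogenase, was at a low level with 4.92 and 6.85 CPM at 12 h, against 1.64 and 2.08 CPM at 6 h (log2 fold change 1.64 ± 0.21, edgeR adjusted p = 1.34e-07).

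Of targets of the glucose-sensing Mondo factors, which act when glucose phosphates are plentiful, 2 of 8 rose and 2 fell (median 0.09). The median was -0.37 over the 3 members that overlap no other gene, of which 0 rose and 1 fell. Txnip, the target most used as a readout, was at a low level, with 1.56 and 1.86 CPM at 12 h, against 0.518 and 0.693 CPM at 6 h (log2 fold change 1.46 ± 0.27, edgeR adjusted p = 4.59e-05). Untreated cells had 9.59 and 8.28 CPM of Txnip, so its 12 h level remained far below theirs. It overlaps the annotated gene Gm15441. Arrdc4, another target, was at about 1 CPM or less with 0.854 and 1.01 CPM at 12 h, against 0.633 and 0.545 CPM at 6 h and did not pass (log2 fold change 0.66 ± 0.37, edgeR adjusted p = 0.152). Mxd4, a MAX partner that opposes MYC, had 39.5 and 40.5 CPM at 12 h, against 20.7 and 19.6 CPM at 6 h (log2 fold change 0.99 ± 0.075, edgeR adjusted p = 6.93e-12), while Klf10 and Bhlhe40, both transcription repressors, had log2 fold changes of -0.88 and -1.53.

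Hypoxia-inducible genes, targets of HIF factors, were higher at 12 h, as 10 of 15 rose and 1 fell (median 0.46), while Hif1a itself had a log2 fold change of -0.01 and did not pass (edgeR adjusted p = 0.909). Ndrg1, a stress-induced gene of that list, had 514 and 534 CPM at 12 h, against 229 and 232 CPM at 6 h (log2 fold change 1.18 ± 0.052, edgeR adjusted p = 3.36e-17). Ero1a, the oxidase that drives disulfide formation in the ER and also a target of CHOP, had 399 and 387 CPM at 12 h, against 180.4 and 196 CPM at 6 h (log2 fold change 1.06 ± 0.062, edgeR adjusted p = 2.15e-14). P4ha1, a collagen prolyl hydroxylase, had 285 and 284 CPM at 12 h, against 151 and 151 CPM at 6 h (log2 fold change 0.91 ± 0.058, edgeR adjusted p = 1.28e-13). Vegfa, the endothelial growth factor, had 271 and 266 CPM at 12 h, against 229 and 217 CPM at 6 h (log2 fold change 0.27 ± 0.052, edgeR adjusted p = 9.43e-05). The member that fell, Egln1, did not pass without the first 12 h library or without either 6 h library.

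Fatty acid oxidation genes were higher in small steps, as 12 of 22 rose and 1 fell (median 0.21). Acot2, a mitochondrial acyl-CoA thioesterase, had 54.2 and 56.1 CPM at 12 h, against 24.5 and 26.3 CPM at 6 h (log2 fold change 1.12 ± 0.076, edgeR adjusted p = 6.07e-13), and its near-identical neighbour Acot1 had a log2 fold change of 1.22, so that reads could have been split between them. Hadh and Hadhb, which carry out steps of the beta-oxidation cycle, had log2 fold changes of 0.46 and 0.43. Genes of cholesterol synthesis, which SREBP2 drives, were lower, as 3 of 25 rose and 16 fell (median -0.36). Hmgcs1, which makes HMG-CoA, had 101 and 97.8 CPM at 12 h, against 241 and 248 CPM at 6 h (log2 fold change -1.30 ± 0.059, edgeR adjusted p = 9.05e-17). Dhcr7, which makes cholesterol in the last step, had 25.5 and 26.2 CPM at 12 h, against 60.7 and 64.3 CPM at 6 h (log2 fold change -1.28 ± 0.080, edgeR adjusted p = 8.87e-14), and Insig1, the ER anchor that holds back SREBPs, had a log2 fold change of -0.84.

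Of fatty acid synthesis genes, 3 of 13 rose and 6 fell (median -0.06), with 3 falls instead of 6 without the second 6 h library. Elovl6, an elongase, had 32.4 and 30.5 CPM at 12 h, against 71.4 and 76.8 CPM at 6 h (log2 fold change -1.23 ± 0.075, edgeR adjusted p = 4.17e-14). Fasn, the fatty acid synthase, had 519.5 and 492 CPM at 12 h, against 773 and 735 CPM at 6 h (log2 fold change -0.58 ± 0.077, edgeR adjusted p = 2.40e-06), and Scd2, a desaturase, had 941 and 924 CPM at 12 h, against 1163 and 1169 CPM at 6 h (log2 fold change -0.32 ± 0.056, edgeR adjusted p = 2.32e-05).

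Transcripts of the mitochondrial genome were lower, as 0 of 13 rose and 12 fell (median -0.46). They took 5.17% ± 0.037 of the reads of the transcript rows kept at 12 h, against 6.32% ± 0.14 at 6 h (SD, n = 2 each). The cytochrome b gene mt-Cytb had 3050.4 and 3059 CPM at 12 h, against 4799 and 5102 CPM at 6 h (log2 fold change -0.70 ± 0.062, edgeR adjusted p = 1.77e-10), and mt-Co2, a subunit of cytochrome oxidase, had 4916 and 4965 CPM at 12 h, against 6302 and 6689 CPM at 6 h (log2 fold change -0.39 ± 0.063, edgeR adjusted p = 5.45e-06). Respiratory chain genes of the nucleus moved in both directions, as 10 of 30 rose and 5 fell (median 0.08), with 6 rises without the second 12 h library and 5 without the first 6 h library. The log2 fold changes of these nuclear genes ran from -0.66 to 0.38, and the members named next are among the falls. Sdhc and Sdhd, the membrane anchors of succinate dehydrogenase, had log2 fold changes of -0.47 and -0.50. Cox7a2, a subunit of cytochrome oxidase, had 63.6 and 60.3 CPM at 12 h, against 91.9 and 103 CPM at 6 h (log2 fold change -0.66 ± 0.069, edgeR adjusted p = 5.15e-09).

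Ribosome biogenesis and ribosomal protein genes moved in opposite directions. Of the biogenesis genes, which make and process ribosomal RNA, 1 of 30 rose and 18 fell (median -0.26). Polr1b, a subunit of RNA polymerase I, had 67.7 and 67.6 CPM at 12 h, against 116 and 113 CPM at 6 h (log2 fold change -0.76 ± 0.059, edgeR adjusted p = 1.23e-11). Nolc1, a nucleolar phosphoprotein gene, had 309 and 307 CPM at 12 h, against 477 and 485 CPM at 6 h (log2 fold change -0.64 ± 0.050, edgeR adjusted p = 9.69e-12). Nop2 and Tsr1, which act in processing of pre-ribosomes, had log2 fold changes of -0.54 and -0.56. Of the ribosomal protein genes, 25 of 28 rose and 0 fell (median 0.29). Rpl3 had 2211 and 2282 CPM at 12 h, against 1553 and 1602 CPM at 6 h (log2 fold change 0.51 ± 0.054, edgeR adjusted p = 5.42e-09), and Rplp0, a protein of the ribosome stalk, had 2942 and 3166 CPM at 12 h, against 2255 and 2366 CPM at 6 h (log2 fold change 0.40 ± 0.067, edgeR adjusted p = 1.19e-05). Their many processed pseudogenes could take part of the reads.

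Host transcripts of small nucleolar RNAs and nuclear long noncoding RNAs had the highest median of the lists, as 11 of 13 rose and 1 fell (median 0.62). Snhg1 had 640.0 and 658 CPM at 12 h, against 218 and 231 CPM at 6 h (log2 fold change 1.53 ± 0.063, edgeR adjusted p = 9.88e-18). Snhg12 had 130.1 and 136 CPM at 12 h, against 47.7 and 52.3 CPM at 6 h (log2 fold change 1.41 ± 0.068, edgeR adjusted p = 3.02e-16), and Zfas1 had 209.9 and 229.9 CPM at 12 h, against 92.3 and 101 CPM at 6 h (log2 fold change 1.19 ± 0.062, edgeR adjusted p = 1.66e-15). These hosts carry small RNA genes in their introns, and spliced hosts of this kind are known to be degraded during translation. Of the 13 tested, 12 overlap another annotated gene, so that the source of their reads is uncertain. Malat1, a nuclear RNA that is not such a host, did not pass (log2 fold change -0.0009).

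Heat shock and cytosolic chaperone genes were mixed, as 5 of 22 rose and 7 fell (median -0.04), with 3 rises instead of 5 and a median of -0.09 without the first 6 h library, and a median of -0.02 without the second. Hspa1b, an inducible HSP70 gene, had 94.6 and 99.1 CPM at 12 h, against 43.1 and 43.8 CPM at 6 h (log2 fold change 1.16 ± 0.091, edgeR adjusted p = 2.66e-11), and its near-identical copy Hspa1a could share its reads. Hspa8, the constitutive HSC70, had 6195 and 6188 CPM at 12 h, against 4950.0 and 5092 CPM at 6 h (log2 fold change 0.30 ± 0.050, edgeR adjusted p = 9.78e-06). Hsph1 and Hspa4, exchange factors of HSP70, had log2 fold changes of -0.68 and -0.61. Of proteasome genes, 1 of 20 rose and 5 fell (median -0.01), with 3 falls without the second 12 h or the second 6 h library, and the sign of that median changed between settings (-0.05 to 0.03).

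Genes of DNA replication and the G1/S transition were higher while genes of mitosis were lower. In the replication list, 21 of 30 rose and 4 fell (median 0.28). E2f1, the factor that switches on S phase genes, had 70.8 and 76.6 CPM at 12 h, against 42.3 and 38.5 CPM at 6 h (log2 fold change 0.87 ± 0.068, edgeR adjusted p = 1.19e-11). Cdc45, a subunit of the replicative helicase, had 81.1 and 82.9 CPM at 12 h, against 49.8 and 44.9 CPM at 6 h (log2 fold change 0.79 ± 0.061, edgeR adjusted p = 8.72e-12). Mcm2, another subunit, had 348 and 342 CPM at 12 h, against 296 and 294 CPM at 6 h (log2 fold change 0.23 ± 0.056, edgeR adjusted p = 0.00143). The falls were those of Ccna2 (cyclin A2), the ribonucleotide reductase genes Rrm2 and Rrm1, and Cdc25a, at -0.79, -0.69, -0.27 and -0.25. An E2F motif (TTTCCCGC or TTTGGCGC) was found in 11 of the 24 promoters of the list at hand. It was in 1.63% of all promoters and in 2.88% of those of genes tested. Of those 11 genes 8 rose, close to the share of the list at hand, in which 18 of 24 rose.

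Of the genes of mitosis, 2 of 28 rose and 22 fell (median -0.58). Plk1, a kinase of mitotic entry and spindle poles, had 29.05 and 26.7 CPM at 12 h, against 67.00 and 69.4 CPM at 6 h (log2 fold change -1.29 ± 0.067, edgeR adjusted p = 1.44e-15). Cdc20, an activator of the anaphase-promoting complex, had 47.97 and 50.2 CPM at 12 h, against 95.96 and 93.8 CPM at 6 h (log2 fold change -0.95 ± 0.056, edgeR adjusted p = 2.37e-14). Ccnb1, which encodes cyclin B1, had 75.8 and 72.1 CPM at 12 h, against 133 and 136 CPM at 6 h (log2 fold change -0.86 ± 0.056, edgeR adjusted p = 1.96e-13), and Bub1b, a checkpoint gene, had a log2 fold change of -0.83. The 2 that rose, Cdc25c and Bub1, did not both pass without the first 12 h library or without either 6 h library. Of D cyclins and CDK inhibitors, 2 of 12 rose and 6 fell (median -0.48). Ccnd1, encoding cyclin D1, which links growth signals to the cell cycle, had 77.00 and 74.1 CPM at 12 h, against 232 and 242 CPM at 6 h (log2 fold change -1.65 ± 0.059, edgeR adjusted p = 3.42e-19). Cdk6, its partner kinase, had 39.7 and 40.7 CPM at 12 h, against 96.97 and 99.7 CPM at 6 h (log2 fold change -1.29 ± 0.065, edgeR adjusted p = 8.91e-16). Cdkn1a, encoding the inhibitor p21, was higher with 102 and 99.9 CPM at 12 h, against 42.2 and 41.6 CPM at 6 h (log2 fold change 1.27 ± 0.056, edgeR adjusted p = 3.79e-17).

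Genes listed as targets of p53 were mostly higher, as 12 of 20 rose and 2 fell (median 0.43). Besides Trp53inp1 and Cdkn1a, Ccng2, a cyclin of arrested cells, had 21.95 and 22.8 CPM at 12 h, against 7.62 and 7.45 CPM at 6 h (log2 fold change 1.57 ± 0.11, edgeR adjusted p = 4.23e-13), and Plk2, a kinase gene, was lower with 91.9 and 86.7 CPM at 12 h, against 164 and 168 CPM at 6 h (log2 fold change -0.89 ± 0.054, edgeR adjusted p = 3.79e-14). Of genes of FOXO factors and insulin feedback, 7 of 16 rose and 6 fell (median 0.18). That median was 0.30 without the first 12 h library, 0.07 without the second and 0.09 without the second 6 h library. By at least 2-fold, 4 members of this list rose and 2 fell, while the members named next all fell. Irs1, the docking protein of the insulin receptor, had 6.24 and 6.35 CPM at 12 h, against 36.4 and 37.1 CPM at 6 h (log2 fold change -2.55 ± 0.11, edgeR adjusted p = 1.58e-17). Trib1, a pseudokinase gene, had 6.95 and 6.72 CPM at 12 h, against 29.2 and 28.2 CPM at 6 h (log2 fold change -2.07 ± 0.088, edgeR adjusted p = 1.58e-17), and Cited2, a transcription cofactor gene, had a log2 fold change of -0.97. Of NRF2 targets, which handle oxidants, 4 of 20 rose and 7 fell (median -0.07), with 2 rises instead of 4 without the first 6 h library and a median of -0.05 without the first 12 h library. Gclc, the catalytic subunit for glutathione synthesis, had 181 and 179 CPM at 12 h, against 97.8 and 96.8 CPM at 6 h (log2 fold change 0.89 ± 0.055, edgeR adjusted p = 6.59e-14), while Txnrd1, the thioredoxin reductase, had 243 and 239 CPM at 12 h, against 367 and 372 CPM at 6 h (log2 fold change -0.62 ± 0.050, edgeR adjusted p = 2.76e-11).

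**Figure D3:**
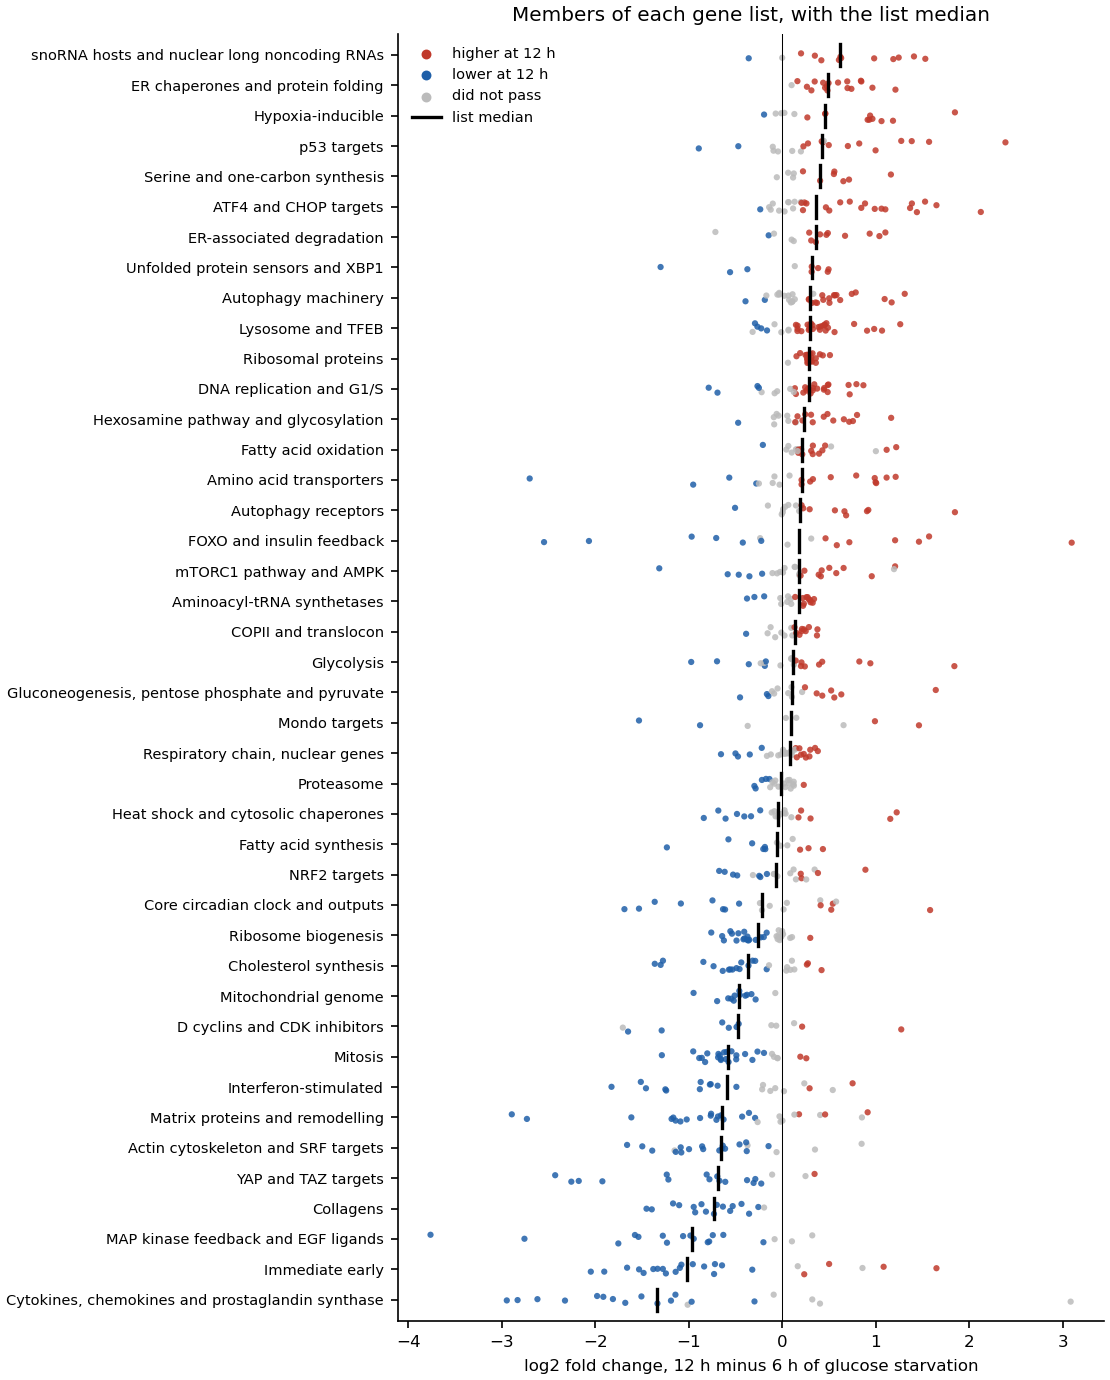
Log2 fold changes, 12 h minus 6 h of glucose starvation, of the tested members of 42 gene lists, with the median of each list as a black bar. Red points rose, blue points fell and grey points did not pass. Medians run from -1.33 for cytokines to 0.62 for snoRNA hosts.

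Immediate early genes, which respond within minutes to serum, growth factors and stress, were lower, as 4 of 24 rose and 18 fell (median -1.02). Fosl1, an AP-1 subunit that lasts longer than Fos, had 36.4 and 39.04 CPM at 12 h, against 140.4 and 141 CPM at 6 h (log2 fold change -1.90 ± 0.057, edgeR adjusted p = 4.69e-21). Fosl2, another such subunit, had 30.8 and 34.1 CPM at 12 h, against 92.1 and 95.1 CPM at 6 h (log2 fold change -1.53 ± 0.062, edgeR adjusted p = 6.77e-18). Myc, a growth factor-induced regulator of growth genes, had 129.9 and 127 CPM at 12 h, against 276 and 267 CPM at 6 h (log2 fold change -1.08 ± 0.057, edgeR adjusted p = 2.19e-15). Levels at 12 h were below those at 6 h in all of them. Egr1 was low at both times, with 3.42 and 2.66 CPM at 12 h, against 7.59 and 7.97 CPM at 6 h (log2 fold change -1.33 ± 0.11, edgeR adjusted p = 1.53e-11). The 4 that rose were Atf3, which is also an ATF4 target, Jund, Jun and Klf4, at 1.65, 1.08, 0.50 and 0.23. None of the 19 promoters at hand held a CRE (TGACGTCA) or an AP-1 motif (TGAGTCA or TGACTCA) in this window, which 1.88% and 5.17% of all promoters held.

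Feedback genes of the MAP kinase pathway and ligands of the EGF receptor fell without a rise among them, as 0 of 18 rose and 15 fell (median -0.96). Dusp5, which removes phosphates from nuclear ERK, had 9.17 and 8.92 CPM at 12 h, against 59.8 and 62.7 CPM at 6 h (log2 fold change -2.76 ± 0.079, edgeR adjusted p = 2.37e-21). Spry2, a Sprouty inhibitor of receptor signals, had 15.5 and 15.5 CPM at 12 h, against 43.4 and 46.7 CPM at 6 h (log2 fold change -1.54 ± 0.070, edgeR adjusted p = 7.32e-17). The ligand gene Hbegf had 18.2 and 17.6 CPM at 12 h, against 52.7 and 54.3 CPM at 6 h (log2 fold change -1.58 ± 0.067, edgeR adjusted p = 1.80e-17), and Ereg, which encodes epiregulin, had 4.64 and 5.18 CPM at 12 h, against 17.5 and 15.5 CPM at 6 h (log2 fold change -1.75 ± 0.11, edgeR adjusted p = 6.79e-14).

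Cytokines, chemokines and prostaglandin synthase genes had the lowest median of the lists, as 0 of 19 rose and 14 fell (median -1.33). Il1rl1 had 14.1 and 14.8 CPM at 12 h, against 101 and 104 CPM at 6 h (log2 fold change -2.83 ± 0.077, edgeR adjusted p = 7.07e-22). Csf1, the macrophage growth factor, had 101 and 109 CPM at 12 h, against 395 and 397 CPM at 6 h (log2 fold change -1.91 ± 0.055, edgeR adjusted p = 2.44e-21). Cxcl12, a chemokine of stromal cells, had 48.8 and 49.3 CPM at 12 h, against 193 and 194 CPM at 6 h (log2 fold change -1.98 ± 0.059, edgeR adjusted p = 4.41e-21). For all of these the 12 h libraries were far below the 6 h libraries. Tnfaip3, the NF-kappaB inhibitor A20, had 7.52 and 7.30 CPM at 12 h, against 46.7 and 44.5 CPM at 6 h (log2 fold change -2.62 ± 0.075, edgeR adjusted p = 2.44e-21). Of interferon-stimulated genes, 2 of 20 rose and 11 fell (median -0.59), with 7 falls instead of 11 without the second 6 h library. The median was -0.39 without the first 12 h library and -0.37 without the first 6 h library. Irf1, an interferon-induced factor, had 14.2 and 14.3 CPM at 12 h, against 24.2 and 27.7 CPM at 6 h (log2 fold change -0.87 ± 0.089, edgeR adjusted p = 2.73e-09).

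Genes of the extracellular matrix were lower. Of collagen genes, 0 of 17 rose and 16 fell (median -0.73). Col1a2, a chain of type I collagen, had 373 and 373 CPM at 12 h, against 724 and 714 CPM at 6 h (log2 fold change -0.95 ± 0.052, edgeR adjusted p = 5.95e-15), and Col1a1, the other chain, had 989.6 and 1032 CPM at 12 h, against 1689.5 and 1664 CPM at 6 h (log2 fold change -0.73 ± 0.057, edgeR adjusted p = 1.03e-11). Col6a1, a chain of the beaded type VI collagen, had 69.1 and 71.6 CPM at 12 h, against 160.2 and 156 CPM at 6 h (log2 fold change -1.17 ± 0.059, edgeR adjusted p = 7.84e-16). Col8a1, a short-chain collagen, and Col5a3 had log2 fold changes of -1.40 and -1.10. Of other matrix proteins and their remodelling enzymes, 3 of 28 rose and 18 fell (median -0.64). Timp3, a matrix-bound inhibitor of metalloproteases, had 645 and 625 CPM at 12 h, against 1918 and 1970.2 CPM at 6 h (log2 fold change -1.61 ± 0.056, edgeR adjusted p = 1.99e-19), and Timp2, another inhibitor, had 248 and 251 CPM at 12 h, against 525 and 537 CPM at 6 h (log2 fold change -1.09 ± 0.051, edgeR adjusted p = 1.50e-16). The rises were those of the hydroxylases P4ha1, P4ha2 and Plod1, which modify collagen in the ER, at 0.91, 0.46 and 0.18.

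The actin cytoskeleton and targets of SRF, a factor whose cofactors sense free actin, were lower, as 0 of 22 rose and 17 fell (median -0.66). Actb, the main cytoplasmic actin gene, had 1551 and 1524 CPM at 12 h, against 4379 and 4301 CPM at 6 h (log2 fold change -1.50 ± 0.051, edgeR adjusted p = 1.07e-19). Vcl, encoding vinculin of focal adhesions, had 259.6 and 256 CPM at 12 h, against 672 and 681 CPM at 6 h (log2 fold change -1.39 ± 0.055, edgeR adjusted p = 4.74e-18). Srf itself had 28.6 and 25.3 CPM at 12 h, against 86.8 and 84.1 CPM at 6 h (log2 fold change -1.66 ± 0.079, edgeR adjusted p = 3.99e-16), and Tpm1, a tropomyosin gene, had 415 and 419.7 CPM at 12 h, against 879.6 and 893 CPM at 6 h (log2 fold change -1.09 ± 0.052, edgeR adjusted p = 2.33e-16). Acta2, the smooth muscle actin gene of activated fibroblasts, did not pass, with 87.5 and 92.00 CPM at 12 h, against 93.6 and 93.6 CPM at 6 h (log2 fold change -0.06 ± 0.066, edgeR adjusted p = 0.474). Tagln, another contractile gene, fell by 0.15 on the log2 scale (edgeR adjusted p = 0.0344), and that call was lost without any one of the 4 libraries, and with library totals.

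YAP and TAZ are cofactors that respond to cell shape and density. In the list of their targets, which includes their own genes Yap1 and Wwtr1, 1 of 18 rose and 15 fell (median -0.68). Ccn2, a secreted matrix-associated protein gene, had 79.97 and 77.4 CPM at 12 h, against 419.9 and 428 CPM at 6 h (log2 fold change -2.43 ± 0.060, edgeR adjusted p = 1.09e-22). Ccn1, its relative, had 123 and 126 CPM at 12 h, against 560.3 and 566 CPM at 6 h (log2 fold change -2.18 ± 0.054, edgeR adjusted p = 1.09e-22). Both are among the most used readouts of YAP activity. F3, encoding tissue factor, had 20.6 and 20.02 CPM at 12 h, against 97.9 and 96.4 CPM at 6 h (log2 fold change -2.26 ± 0.067, edgeR adjusted p = 4.41e-21), and Ankrd1, a nuclear ankyrin repeat protein gene, had 29.6 and 29.98 CPM at 12 h, against 110.5 and 116 CPM at 6 h (log2 fold change -1.92 ± 0.061, edgeR adjusted p = 1.77e-20). The member that rose, Wwtr1 at 0.35, encodes TAZ, one of the cofactors themselves. The motif CATTCC, which the partner factors TEAD are known to bind, was found in 10 of the 15 promoters at hand, against 14.6% of all promoters. Of those 10 genes, Yap1 and Wwtr1 among them, 8 fell, while 12 of the 15 fell. The promoter of Ccn1 (chr3:145649936-145650235, minus strand, GRCm38.p6) is shown with its match in capitals, 103 bases before the start on the strand of the gene.
Ccn1: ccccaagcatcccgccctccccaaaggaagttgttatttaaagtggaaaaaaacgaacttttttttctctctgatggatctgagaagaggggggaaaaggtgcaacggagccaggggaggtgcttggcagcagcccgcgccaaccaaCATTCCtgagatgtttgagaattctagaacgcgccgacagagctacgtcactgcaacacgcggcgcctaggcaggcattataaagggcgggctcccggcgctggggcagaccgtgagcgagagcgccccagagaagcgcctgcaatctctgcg

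Clock genes moved in both directions. Of core clock genes and their outputs, 4 of 19 rose and 8 fell (median -0.22). Their median was -0.43 without the second 12 h library and -0.12 without the second 6 h library. By at least 2-fold, 1 of them rose and 4 fell, and the members named next are among the falls. Per2, a repressor of the clock, had 2.51 and 2.79 CPM at 12 h, against 8.83 and 8.17 CPM at 6 h (log2 fold change -1.69 ± 0.14, edgeR adjusted p = 5.82e-11). Nr1d1, which encodes REV-ERBα, had 8.38 and 7.22 CPM at 12 h, against 16.3 and 16.96 CPM at 6 h (log2 fold change -1.08 ± 0.099, edgeR adjusted p = 3.35e-10), and Tef, an output factor gene, had a log2 fold change of -0.75. Bhlhe40, which also represses clock genes, had 12.9 and 11.2 CPM at 12 h, against 34.4 and 35.5 CPM at 6 h (log2 fold change -1.53 ± 0.088, edgeR adjusted p = 1.51e-14).

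The same interval of amino acid starvation, which shares no library with that of glucose starvation, was fitted beside it. Under amino acid starvation 9708 genes (54.9%) changed between 6 h and 12 h, 4917 of them higher (27.8%) and 4791 lower (27.1%). The difference of the changes, glucose minus amino acid starvation, passed in 6987 genes (39.5%), with 3828 higher (21.6%) and 3159 lower (17.9%). Across the 17696 genes, which are not independent replicates and share library depths within each starvation, the log2 fold changes correlated with Pearson's r of 0.369 and Spearman's rho of 0.418. Genes that changed under both starvations numbered 5794, which is 68.9% of those of glucose starvation and 59.7% of those of amino acid starvation. Of these, 4650 moved in the same direction, 2354 higher and 2296 lower. The other 1144 moved in opposite directions, 710 of them higher without glucose and lower without amino acids. The difference passed in all 1144, which passing changes of opposite sign make all but certain.

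**Figure D4:**
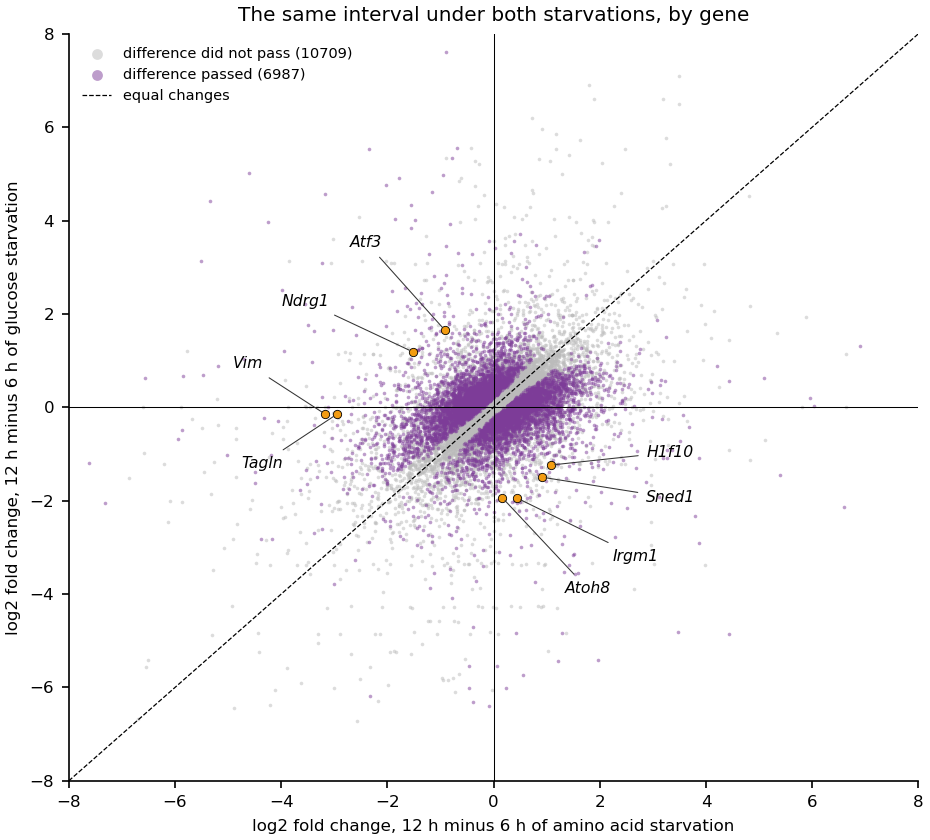
Log2 fold change, 12 h minus 6 h, of each of the 17696 genes under glucose starvation (vertical axis) and amino acid starvation (horizontal axis). Purple points passed the test of the difference (6987), grey points did not (10709), and the dashed line marks equal changes. The 4 highest and 4 lowest named differences, from Vim at 3.02 to Sned1 at -2.41, are labelled.

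Some of the largest named differences came from genes with small changes without glucose. Vim, encoding the intermediate filament vimentin, had 2173 and 2255 CPM at 12 h, against 2434 and 2474 CPM at 6 h of glucose starvation (log2 fold change -0.15 ± 0.055, edgeR adjusted p = 0.0276), and 101 and 97.9 CPM at 12 h of amino acid starvation, against 886 and 900.2 CPM at 6 h (log2 fold change -3.17 ± 0.061, edgeR adjusted p = 1.51e-25), which gave a difference 3.02 ± 0.081, edgeR adjusted p = 3.72e-21. The small fall without glucose was lost without any one of the 4 libraries, and with library totals. Tagln had 9.56 and 10.1 CPM at 12 h of amino acid starvation, against 75.6 and 76.2 CPM at 6 h (log2 fold change -2.95), and a difference 2.80 ± 0.089, edgeR adjusted p = 1.63e-19. Ndrg1 was higher at 12 h without glucose (1.18) and lower at 12 h without amino acids, with 139 and 138 CPM at 12 h of amino acid starvation, against 402 and 389 CPM at 6 h (-1.52), a difference 2.70 ± 0.074, edgeR adjusted p = 3.72e-21. Atf3 showed the same contrast, with log2 fold changes of 1.65 without glucose and -0.92 without amino acids (difference 2.56 ± 0.088, edgeR adjusted p = 5.37e-19). On the other side, Irgm1, an interferon-induced GTPase gene, had 6.09 and 6.37 CPM at 12 h, against 22.9 and 24.9 CPM at 6 h of glucose starvation and a log2 fold change of -1.94, against 0.44 without amino acids (difference -2.38 ± 0.16, edgeR adjusted p = 1.64e-12). Sned1, H1f10, which encodes a linker histone, and Atoh8, a transcription factor gene, had differences of -2.41, -2.31 and -2.10.

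Several lists had medians of opposite sign in glucose and amino acid starvation. The median of the ATF4 and CHOP targets was 0.36 without glucose and -0.43 without amino acids, and the difference was higher in 25 of 30 members and lower in 0. Serine and one-carbon genes had 0.40 and -0.38, with a higher difference in 10 of 11. For ER chaperones the medians were 0.49 without glucose and -0.12 without amino acids, with 15 of 18 differences higher and 1 lower. Ribosomal proteins had medians of 0.29 and -0.18, with 25 of 28 differences higher. In the other direction, cholesterol synthesis had -0.36 without glucose and 0.23 without amino acids, with 17 of 25 differences lower and 2 higher. Mitosis had -0.58 and 0.05, with 20 of 28 differences lower and 0 higher.

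Other lists had medians below 0 in both starvations, of different size. Collagens had medians of -0.73 without glucose and -1.27 without amino acids, with a higher difference in 15 of 17. Actin and SRF genes had -0.66 and -1.31, with 13 of 22 differences higher and 4 lower. For YAP and TAZ targets the medians were -0.68 and -0.45, with 6 of 18 differences higher and 9 lower. Ccn1 was among the 9 that were lower, with log2 fold changes of -2.18 without glucose and -0.27 without amino acids (difference -1.91 ± 0.075, edgeR adjusted p = 1.46e-17). Cytokines had the lowest medians under both, -1.33 without glucose and -1.60 without amino acids.

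**Figure D5:**
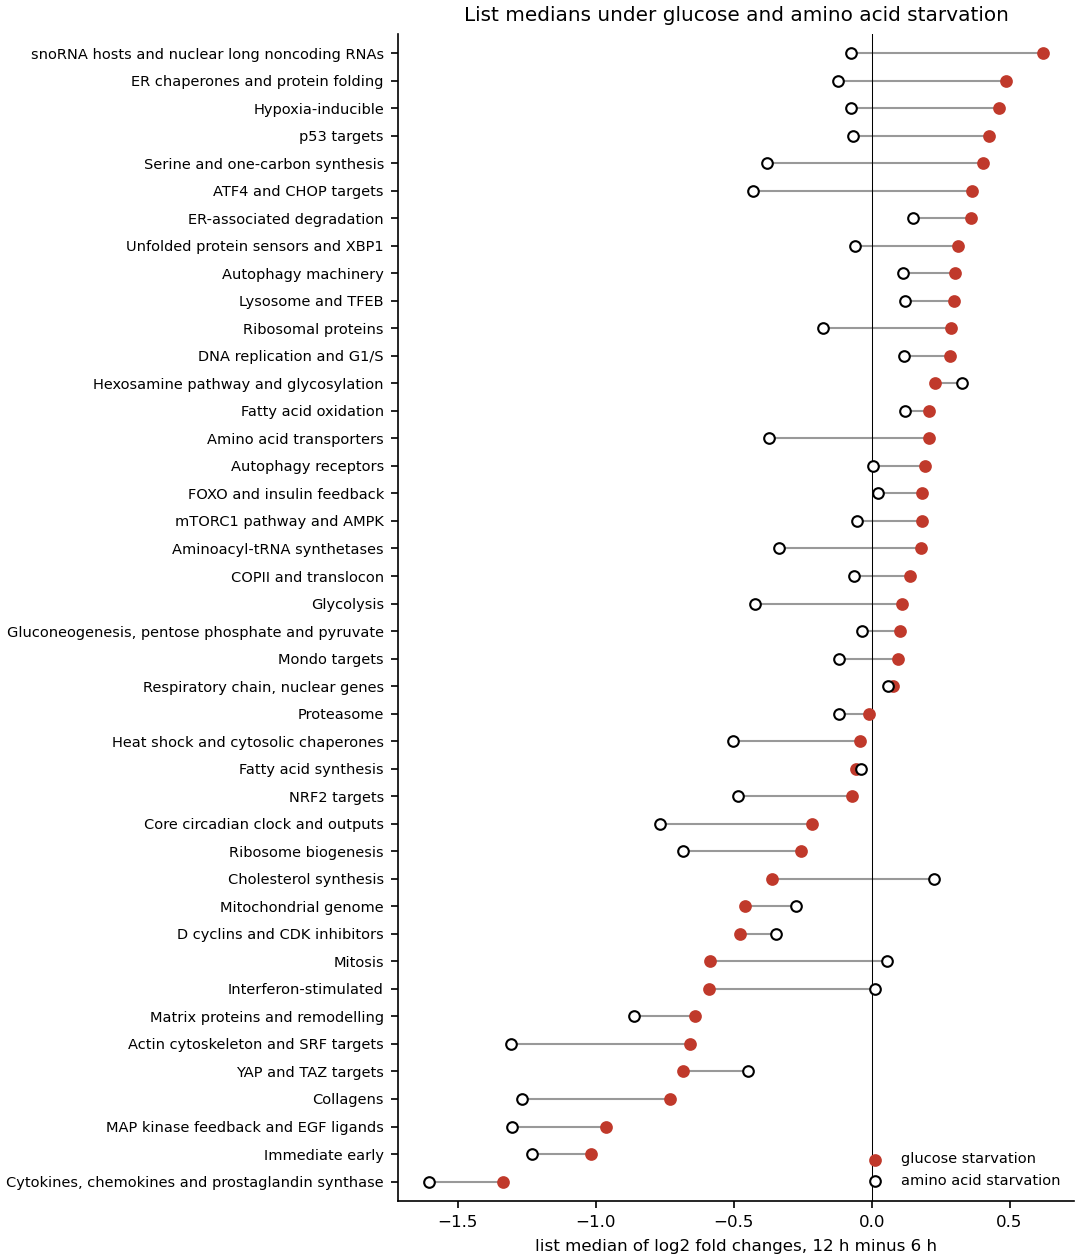
Median log2 fold change, 12 h minus 6 h, of the tested members of 42 gene lists under glucose starvation (filled red) and amino acid starvation (open). The 2 medians lie on opposite sides of 0 for ATF4 and CHOP targets (0.36 and -0.43) and for cholesterol synthesis (-0.36 and 0.23), and both are below -1.2 for cytokines.

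The interval from 3 h to 6 h without glucose shares the 6 h libraries with the later interval, so its values are set beside it with no test between them. Genes of cholesterol synthesis had a median of 0.86 in the earlier interval and -0.36 in the later one. Hmgcs1 stood at 112 ± 4.20 CPM in untreated cells and at 123 ± 10.1, 245 ± 4.31 and 99.2 ± 2.01 CPM after 3, 6 and 12 h without glucose (SD, n = 2 each). Cytokines had medians of -1.26 and -1.33 in the earlier and the later interval, and MAP kinase feedback genes -1.36 and -0.96. Genes of mitosis had 0.01 in the earlier interval and -0.58 in the later one. ER chaperones had 0.23 and 0.49. Calr stood at 1949.6 ± 23.9 CPM in untreated cells and at 2471 ± 35.7, 2689 ± 89.3 and 4817 ± 65.2 CPM along starvation. The actin and SRF list had -0.08 and -0.66.

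The genes that rose had a median transcript length of 2833 bases and those that fell 3101.5 bases, against 2601 bases for all genes tested. Their median GC content was 49.9% and 50.7%, against 50.1% for all. Long noncoding genes made up 3.26% of the annotated genes that rose and 4.48% of those that fell, against 7.75% of those tested. Of the 208 named genes and list members taken by the naming rule, 75 overlap another annotated gene, among them Angptl6, Bnip3, Mir100hg, Dusp5, Thbs1, Hmga2, Ndrg1, Ppp1r15a, Dnajb9, Syvn1, Hmgcs1, Slc6a9, Sqstm1, Ddit3, Ccnd1, Cdkn1a, Plk1, Irs1, Fosl1, Timp3, Vcl, Ccn2 and the Snhg hosts. Whether counting used strand is not stated, so that part of their reads could belong to the other gene.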

How the data were processed

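RNA sequencing of mouse embryonic fibroblasts was deposited as 1 table of counts of reads for each transcript and library, whole numbers that the authors did not normalise as far as the values show. Per the submitters' processing notes, GRCm39, STAR and bedtools were used. Versions, the counting rule and its use of strand are not given in the sources used here. The members and gene lists, and the processing, were chosen with earlier results of these data known.

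The table held 67457 lines, of which 58 named no gene (0% of reads). For each of 40800 genes the transcript line with the most reads over 14 libraries was kept, which set aside other transcripts for the 13432 genes (32.9%) with several. Depth over the lines kept was 35270751 to 55349673 reads. Genes passing edgeR's filter (17696) were fitted over all 7 groups (7 residual degrees of freedom) with TMM factors and quasi-likelihood tests in edgeR 4.0.16 (limma 3.58.1, R 4.3.3), with Benjamini-Hochberg adjustment. The contrasts were 12 h minus 6 h of glucose starvation, the same of amino acid starvation, and their difference. The biological coefficient of variation was 5.78%.

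Genes named were the 8 highest and 8 lowest that passed, had 3 or more as mean log2 CPM, libraries that did not overlap and no provisional symbol, the 4 highest and 4 lowest differences, up to 4 called members of each list with the smallest p, and a panel of 30 genes. The fit was tested on simulated counts. Alternatives were DESeq2 1.42.0, RLE factors, library totals, the mean of transcript lines, no filter, a stricter filter (CPM of at least 1 in at least 4 libraries), the compared groups alone, a replicate block, each library left out, and genes that overlap no other annotated gene. Coordinates and promoter sequences are from RefSeq (GRCm38.p6), and overlaps and lengths from GENCODE (GRCm38). The files use another build, so no coordinates were carried over from them. A few genes that the naming rule gives are not reported here.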

Additional observations from a re-analysis of the deposited data

Results flagged for a closer look

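The change between 6 h and 12 h differed between glucose and amino acid starvation in 6987 of 17696 genes (edgeR test of the difference, adjusted p under 0.05). The named genes with the highest differences, glucose minus amino acid, were Vim at 3.02, Tagln at 2.80, Ndrg1 at 2.70 and Atf3 at 2.56. Vim and Tagln belong to the cytoskeleton, and Ndrg1 and Atf3 to stress responses. The lowest were Sned1 at -2.41, Irgm1 at -2.38, H1f10 at -2.31 and Atoh8 at -2.10. Groups of 2 libraries are too small to single out a library within a group.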

How the results depend on the processing

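The 208 genes taken by the naming rule kept their direction without glucose under each alternative that gave them a value. Genes named outside that rule, with Hif1a and Malat1 near 0, are not covered by this. The number of genes that changed without glucose was 7727 with DESeq2, 8345 with RLE factors, 8535 with library totals, 8348 with the mean of transcript lines, 8210 with no filter, 8091 with a stricter filter and 9164 with the 2 groups compared alone, against 8411. With each of the 4 libraries left out it was 6870 to 7092. The one alternative that moved counts over all genes by over 1.5 times was to leave out genes that overlap another annotated gene, which left 9979 genes to test, and of these 4862 changed, 2624 higher and 2238 lower, with 436 and 608 at least 2-fold. It gave 5628 genes for amino acid starvation and 4077 for the difference. With library totals 57.3% of calls were higher and with RLE factors 51.6%, against 53.9%. For those 208 genes, counted as 1 value for each gene and alternative, 2586 values lay on the same side of the threshold as reported, 34 lost it (values of Epor, Vwf, Tagln, Vim, Gdf15, Hspa5, Cd14 and Cebpa) and 8, all of Atf4, gained it. All 132 such values of named differences kept theirs. Of the list medians, marker lists included, 582 values moved by less than the median SE of a gene's log2 fold change and 55 by more. Medians over members that overlap no other gene rest on fewer genes, given in brackets. They were 0.22 for serine and one-carbon synthesis (5), -0.70 for the mitochondrial genome (3) and -0.12 for D cyclins and CDK inhibitors (5). For FOXO the median was 0.58 (9), for NRF2 -0.16 (15), for matrix -0.29 (19) and for the clock -0.04 (10).

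The labels give replicate numbers, and the deviations of same-numbered samples correlated at -0.26 to 0.39, over 0.1 in 11 of 21 pairs of groups and so not in every pair. The pairing is therefore not taken as established, and a batch shared by some same-numbered samples was not tested. With the replicate block 8622 genes changed.

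With 2 libraries a group, small changes can be missed.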
